A study of Macaca mulatta with 20 samples.

Results

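The mitochondrial carriers are a family of transport proteins that sit, for the most part, in the inner mitochondrial membrane and exchange nucleotides, phosphate, organic acids, amino acids, cofactors and metals between the cytosol and the mitochondrial matrix. The genes described here are those whose symbol in the platform annotation starts with SLC25A, together with the uncoupling proteins UCP1, UCP2 and UCP3, which belong to the same family. Only probe sets annotated with exactly 1 symbol were used, and where a gene had several, the brightest on average over the 20 arrays stood for it. This gave 39 carrier genes, from 63 probe sets, among the 14132 genes that could be named in the same way. Of the 39 genes, 14 had several probe sets and 25 had 1.

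The tissue was the corpus luteum of the rhesus macaque, a short-lived ovarian gland that arises after ovulation and secretes progesterone. Total RNA of 20 corpora lutea from females with normal menstrual cycles was hybridised to rhesus Affymetrix arrays, 1 array per gland and 4 glands at each of 5 stages. The glands were collected on days 3 to 5 (early), 7 to 8 (mid), 10 to 12 (mid-late), 14 to 16 (late) or 18 to 19 (very-late) counted from the surge of luteinizing hormone, and the submitters describe these as biological replicates. No stage carried a treatment or an altered gene, the ages of the animals are not given in the sources used here, and each stage is read from 4 glands taken once, so no animal was followed through the cycle.

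Mitochondrial carriers share a fold of repeated modules that opens in turn to either side of the membrane, and many of them work by strict exchange of one substrate for another. The adenine nucleotide translocators bring ADP into the matrix and release ATP, and the phosphate carrier supplies the phosphate for ATP synthesis. In steroid-producing cells the mitochondrion also holds the first step of steroid synthesis, the cleavage of the cholesterol side chain, so its traffic of reducing equivalents, iron and substrates is tied to a second task beside energy supply.

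Values are on the log2 scale of the deposited normalisation (RMA), where a step of 1 is a 2-fold step. The number of arrays limits their precision, and no read depth stands behind them. Differences between stages were tested with limma over all 52707 probe sets together, and a difference was called at an adjusted p under 0.05. These p-values measure the spread between glands of a stage. Levels are compared between stages within a probe set and never between probe sets. As a background level, 674 probe sets for viral genomes had a 95th percentile of 4.30, and 26 of the 39 carriers had a highest stage mean above it. The other 13 were SLC25A2, SLC25A15, SLC25A18, SLC25A21, SLC25A31, SLC25A34, SLC25A35, SLC25A41, SLC25A42, SLC25A48, SLC25A52, UCP1 and UCP3.

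The arrays carried 2 features that touch several results. The mean of 6 probe sets for the mitochondrial genome lay between 11.50 and 12.45 on 13 arrays and between 7.02 and 8.93 on the other 7, which were all 4 mid arrays, early 4, mid-late 1 and very-late 2. In very-late 1 the 3-prime over 5-prime difference of the GAPDH control was 2.70, against 0.83 to 1.78 on the other arrays. The luteal markers STAR, HSD3B2 and CYP19A1 (3 of the 5 listed) averaged 10.33 to 12.36 per array from early to late and 6.52 to 8.03 at very-late. The macrophage markers CD68, CD14, CSF1R, MSR1 and CYBB (5 of the 6 listed) averaged 5.52 to 7.41 from early to late and 8.86 to 10.03 at very-late. In bulk tissue, fewer cells of a type and less RNA per cell cannot be told apart, and this holds for every difference below.

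The share of carriers called between the stages was near that of all probe sets, and a carrier without a call may still differ. The test of any difference between the stages called 7 of the 39 (17.9%), against 21.5% of all probe sets and 33.6% of genes with 1 probe set each. An unadjusted p under 0.05 was reached by 15 of the 39 carriers and by 6377 of the 14132 genes. The 7 genes were SLC25A4, SLC25A5, SLC25A11, SLC25A17, SLC25A22, SLC25A37 and SLC25A51. The median range between the highest and the lowest stage mean was 0.33 log2 units over the carriers and 0.33 over all genes. The very-late stage held the lowest mean for 15 of the 39 carriers (38.5%) and for 30.9% of all genes, and among those above background for 13 of 26 carriers (50.0%) and 36.7% of 9445 genes. The share of called carriers did not exceed either background share, so the results that follow belong to single genes.

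**Figure D1:**
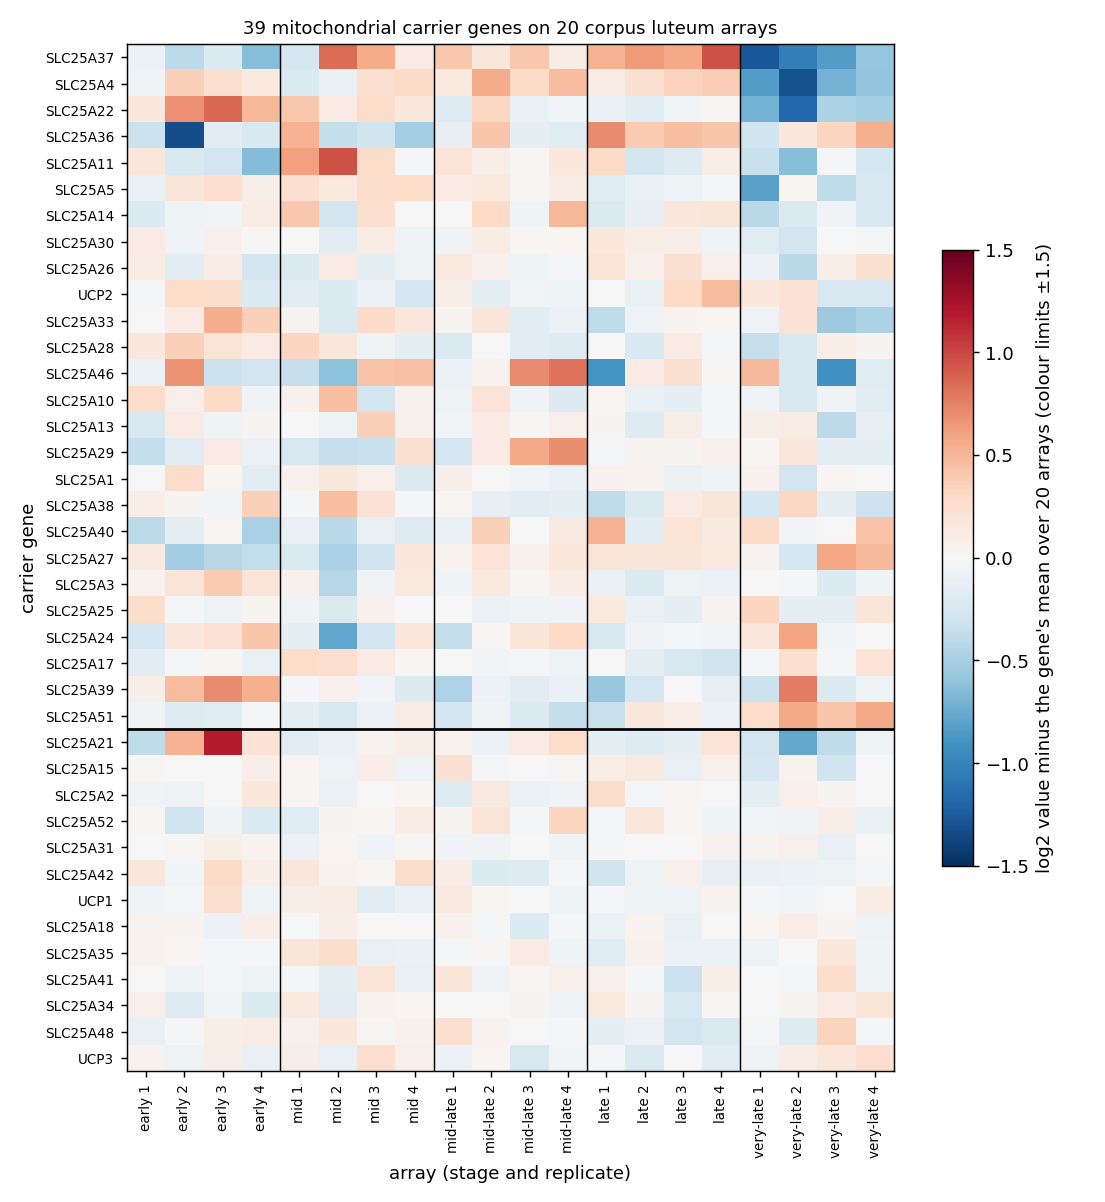
Each row is 1 of the 39 carrier genes and each column 1 of the 20 arrays, ordered by stage, and the colour is the log2 value minus the gene's mean over the 20 arrays. Genes above the black line had a highest stage mean above the viral background of 4.30. SLC25A37, SLC25A4 and SLC25A22 are blue on all 4 very-late arrays, SLC25A51 is red there, and most other rows stay pale.

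Among the carriers of adenine nucleotides, phosphate and coenzyme A, 9 of 12 listed genes had a probe set, 6 of them above background. SLC25A4, the adenine nucleotide translocator of heart and muscle (ANT1), fell at very-late. SLC25A4 read 8.71, 9.12, 9.00 and 8.90 on the early arrays, 8.54, 8.65, 9.01 and 9.04 at mid, 8.91, 9.31, 9.04 and 9.22 at mid-late, 8.87, 8.99, 9.11 and 9.13 at late and 7.92, 7.45, 8.05 and 8.17 at very-late. The first 4 stages overlap one another, and every very-late array lies below all 16 earlier arrays. Very-late stood 1.12 ± 0.15 (SE) log2 units below late, or 2.18-fold lower (limma, adjusted p = 3.05e-05), and 2.05-fold below early (adjusted p = 4.67e-05). Its stage means from early to late ran from 8.81 ± 0.25 (SD, n = 4) to 9.12 ± 0.18 (SD, n = 4). All 3 probe sets of SLC25A4 fell from late to very-late, by differences of -1.23 to -0.85.

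SLC25A5, the adenine nucleotide translocator of dividing cells (ANT2), is a close relative of SLC25A4, and no probe sequence was used, so probes that bind both were not looked for. SLC25A5 read 11.15, 11.45, 11.52 and 11.35 at early, 11.51, 11.41, 11.53 and 11.54 at mid, 11.39, 11.41, 11.30 and 11.38 at mid-late, 11.08, 11.15, 11.18 and 11.25 at late and 10.46, 11.29, 10.89 and 11.04 at very-late. The very-late arrays spread widely, with very-late 2 inside the early range and very-late 1 lowest. SLC25A5 fell from early to very-late by 0.45 ± 0.12 (limma, adjusted p = 0.0120), a call that ended under cyclic loess scaling between the arrays (difference -0.21, adjusted p = 0.242) and with only the 8 arrays of these stages in the fit (adjusted p = 0.143). From late to very-late its difference was -0.25 ± 0.12 and did not pass (adjusted p = 0.218). The difference between the changes of SLC25A4 and SLC25A5 was not tested.

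SLC25A3, the mitochondrial phosphate carrier, had stage means of 10.93 ± 0.14 at early, 10.65 ± 0.26 at mid, 10.78 ± 0.09 at mid-late, 10.60 ± 0.06 at late and 10.65 ± 0.09 at very-late (SD, n = 4 each). Its late and very-late arrays all lay below its early arrays, and neither difference passed (late against early -0.33 ± 0.10, adjusted p = 0.0539; very-late against early -0.29 ± 0.10, adjusted p = 0.0560). A second SLC25A3 probe set, below background, had means of 3.19 to 3.45 and its small differences of -0.27 and -0.25 did pass (adjusted p = 0.0102 and 0.00665).

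SLC25A17, a carrier of coenzyme A, FAD and NAD that resides in the peroxisome, rose from late to very-late by 0.27 ± 0.08, or 1.21-fold (limma, adjusted p = 0.0261), close to background. SLC25A17 read 4.26, 4.41, 4.45 and 4.32 at early, 4.70, 4.68, 4.55 and 4.46 at mid, 4.44, 4.39, 4.41 and 4.35 at mid-late, 4.42, 4.29, 4.19 and 4.12 at late and 4.40, 4.68, 4.41 and 4.63 at very-late. Its mid arrays were the highest group, and late 1 lay inside the very-late range. The call ended when very-late 1 and 2 were left out together (adjusted p = 0.101), on the 13 arrays of high mitochondrial-genome signal (adjusted p = 0.128), and when late 3, late 4, very-late 2 or very-late 4 was left out alone (adjusted p up to 0.0945). Its other 2 probe sets differed by -0.01 and 0.09 from late to very-late and did not pass.

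The ATP-Mg and phosphate carriers SLC25A24 and SLC25A25 did not pass any test. SLC25A24 had stage means between 6.57 and 7.00, and SLC25A25 between 7.93 and 8.04. SLC25A31, a translocator of germ cells, SLC25A41 and SLC25A42, a carrier of coenzyme A, stayed below the viral background at every stage mean and had no call.

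Among the carriers of citrate, dicarboxylates and oxoacids, all 4 listed genes were measured and 3 lay above background. SLC25A1, the citrate carrier that exports citrate for fatty acid and sterol synthesis, had the flattest course of the carriers above background. It read 7.65 to 8.09 at early, 7.61 to 7.99 at mid, 7.71 to 7.90 at mid-late, 7.72 to 7.88 at late and 7.54 to 7.88 at very-late. Its stage means spanned 0.08 log2 units, and very-late differed from late by -0.04 ± 0.10 (limma, adjusted p = 0.874). SLC25A10, the dicarboxylate carrier, had means of 4.61 ± 0.17 at early and 4.33 ± 0.09 at very-late (SD, n = 4), a difference of -0.28 ± 0.12 that did not pass (adjusted p = 0.135).

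SLC25A11, the oxoglutarate carrier of the malate-aspartate shuttle, passed the test of any difference (range of stage means 0.77, limma adjusted p = 0.0329) and none of the 7 comparisons. SLC25A11 read 7.40, 7.00, 6.95 and 6.59 at early, 7.85, 8.19, 7.51 and 7.21 at mid, 7.44, 7.33, 7.26 and 7.39 at mid-late, 7.53, 6.96, 7.05 and 7.34 at late and 6.90, 6.59, 7.21 and 6.97 at very-late. The mid arrays were highest as a group, and mid 4 lay inside the early range. All 4 mid arrays belong to the group of low mitochondrial-genome signal, so the stage and this signal cannot be told apart at mid. The other probe set of SLC25A11 had its highest mean at early. It fell by 0.45 ± 0.13 from early to late (limma, adjusted p = 0.0453), by 0.94 ± 0.13 from early to very-late (adjusted p = 4.72e-05) and by 0.49 ± 0.13 from late to very-late (adjusted p = 0.0178). The probe sets of SLC25A11 thus gave different courses.

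SLC25A21, the oxodicarboxylate carrier, was near background, with a mean of 4.24 ± 0.65 at early and 3.47 ± 0.29 at very-late (SD, n = 4). It fell by 0.76 ± 0.22 (limma, adjusted p = 0.0211), with overlapping arrays of 3.47 to 5.03 at early and 3.08 to 3.77 at very-late. The call ended without early 2, early 3 or very-late 2 (adjusted p up to 0.0732) and on the 13 arrays of high mitochondrial-genome signal (adjusted p = 0.143).

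The carriers of amino acids and glutathione counted 9 measured genes of 11 listed, 6 above background. SLC25A22, a glutamate carrier, had the widest fall between early and very-late among the 39 genes. SLC25A22 read 6.74, 7.26, 7.43 and 7.08 at early, 6.98, 6.69, 6.85 and 6.73 at mid, 6.37, 6.88, 6.48 and 6.53 at mid-late, 6.47, 6.41, 6.53 and 6.59 at late and 5.86, 5.40, 6.10 and 6.08 at very-late. All late arrays lie below all early arrays, and all very-late arrays lie below every other array. The gene was 1.54-fold lower at late than at early (limma, adjusted p = 0.0174) and 2.41-fold lower at very-late than at early (adjusted p = 9.02e-06). From late to very-late it fell by 0.64 ± 0.15, or 1.56-fold (adjusted p = 0.00781).

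The late to very-late call of SLC25A22 did not hold in every set of arrays. On the 13 arrays of high mitochondrial-genome signal its difference was -0.49 (limma, adjusted p = 0.0537), and without very-late 1 and 2 it was -0.41 (adjusted p = 0.131). The very-late to early difference was -1.13 on those 13 arrays (adjusted p = 0.00038). The late to early call ended without early 2, early 3 or late 2 (adjusted p up to 0.0711).

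SLC25A39, which is needed for the import of glutathione into mitochondria, fell from early to late by 0.69 ± 0.19, or 1.62-fold (limma, adjusted p = 0.0321). SLC25A39 read 6.78, 7.16, 7.40 and 7.21 at early, 6.66, 6.75, 6.64 and 6.48 at mid, 6.22, 6.60, 6.51 and 6.58 at mid-late, 6.11, 6.42, 6.68 and 6.56 at late and 6.36, 7.46, 6.48 and 6.62 at very-late. The early arrays lie above all mid, mid-late and late arrays, and very-late 2 is the highest of all 20. Very-late 2 also had the highest macrophage marker average, 10.03, low mitochondrial-genome signal, 7.22, and the lowest GAPDH 3-prime over 5-prime difference, 0.83. The part of these features in this value was not tested. The late to early call ended without any one of early 2, early 3, early 4, late 1, late 2 or late 4 (adjusted p up to 0.109) and with a term for the mitochondrial-genome groups (adjusted p = 0.0554).

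SLC25A40, the close relative of SLC25A39, did not pass: its mean was 6.43 ± 0.24 at early and 6.84 ± 0.23 at very-late (SD, n = 4), a difference of 0.42 ± 0.15 (limma, adjusted p = 0.0586). A second probe set of SLC25A40 rose by 0.45 ± 0.14 between the same stages (adjusted p = 0.0315). SLC25A13, the aspartate-glutamate carrier citrin, had means between 7.00 and 7.17, a range of 0.17, while 1 of its 2 dim probe sets rose from early to mid-late by 0.46 ± 0.12 (adjusted p = 0.0455). SLC25A38, a glycine carrier needed for haem synthesis, had means between 6.01 and 6.27 and a very-late to late difference of -0.03 ± 0.15 (adjusted p = 0.940). SLC25A29, a carrier of basic amino acids, had means between 5.63 and 6.09 and no call. The ornithine carriers SLC25A2 and SLC25A15 and the glutamate carrier SLC25A18 were below background with no call.

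Among the carriers of nucleotides and cofactors, 5 of 8 listed genes were measured and 4 lay above background. SLC25A51, which brings NAD into mitochondria, rose at very-late. SLC25A51 read 4.31, 4.16, 4.18 and 4.35 at early, 4.21, 4.12, 4.27 and 4.47 at mid, 4.08, 4.31, 4.16 and 4.00 at mid-late, 4.03, 4.53, 4.46 and 4.27 at late and 4.64, 4.93, 4.78 and 4.92 at very-late. Every very-late array lies above all 16 earlier arrays, which stay around the background level of 4.30. The rise was 0.49 ± 0.11 from late, or 1.41-fold (limma, adjusted p = 0.00336), and 0.57 ± 0.11 from early, or 1.48-fold (adjusted p = 0.000709). On the 13 arrays of high mitochondrial-genome signal the rise from late was 0.46 (adjusted p = 0.0269). SLC25A52, a close relative, lay below background with no call, and probes that bind both genes were not looked for.

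SLC25A36, a pyrimidine nucleotide carrier, rose from early to late by 1.01 ± 0.25, or 2.01-fold (limma, adjusted p = 0.0188). SLC25A36 read 7.05, 6.05, 7.20 and 7.14 at early, 7.89, 7.02, 7.08 and 6.86 at mid, 7.24, 7.78, 7.23 and 7.19 at mid-late, 8.08, 7.77, 7.83 and 7.79 at late and 7.07, 7.55, 7.69 and 7.91 at very-late. All late arrays lie above all early arrays, and early 2 lies more than 1 log2 unit below the other early arrays. Without early 2 the difference was 0.74, and the call ended there and without late 1 (adjusted p up to 0.0566).

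The other bright probe set of SLC25A36 had no such low array. That probe set read 6.53, 6.53, 6.83 and 6.72 at early, 7.31, 7.45, 7.45 and 7.63 at mid, 7.30 to 7.67 at mid-late and late, and 7.55, 7.09, 7.17 and 7.02 at very-late. It rose already at mid, by 0.81 ± 0.10 (limma, adjusted p = 0.00410), and stood 0.92 ± 0.10 above early at mid-late (adjusted p = 0.000508) and 0.79 ± 0.10 above early at late (adjusted p = 0.000161). Both probe sets were higher at late than at early, and they differ in the stage at which the step appears. All 4 mid arrays have low mitochondrial-genome signal, and 3 of 4 early, 3 of 4 mid-late and all 4 late arrays have high signal. With no mid array of high signal, the stage and this signal cannot be told apart at mid.

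SLC25A33, the other pyrimidine nucleotide carrier, had a mean of 6.97 ± 0.24 at early and 6.49 ± 0.36 at very-late (SD, n = 4). The fall of 0.47 ± 0.16 passed narrowly (limma, adjusted p = 0.0486), with overlapping arrays, and ended in 16 of the 20 fits that left out 1 array (adjusted p up to 0.160). SLC25A26, the carrier of S-adenosylmethionine, had means between 6.52 and 6.75 and no call.

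**Figure D2:**
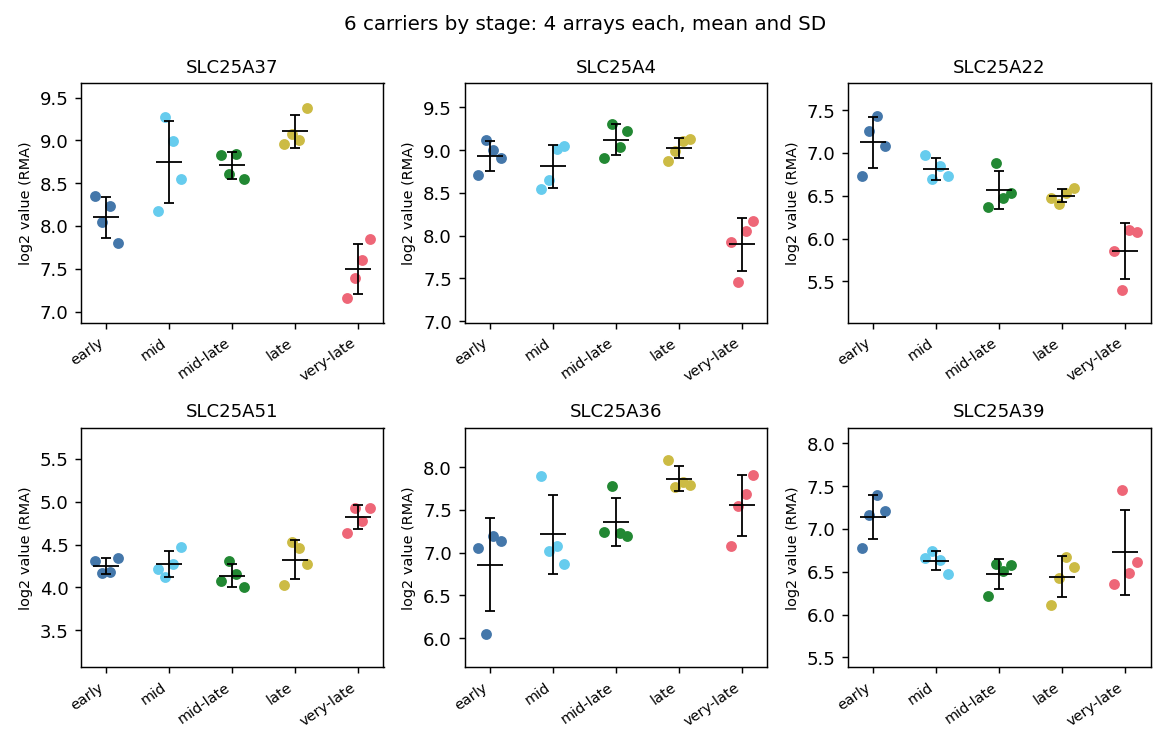
Points are the log2 values of the 4 arrays at each of the 5 stages for 6 carriers, and the bars are the stage mean and SD. SLC25A4 and SLC25A22 have their lowest 4 arrays at very-late, SLC25A37 has its lowest mean there, SLC25A51 has its highest 4 there, and SLC25A36 and SLC25A39 differ between early and late.

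Both carriers of iron were measured and lay above background. SLC25A37, mitoferrin-1, which brings iron into the matrix for haem and iron-sulphur clusters, had the largest range of the 39 genes, 1.61 log2 units between late and very-late. SLC25A37 read 8.35, 8.04, 8.23 and 7.80 at early, 8.18, 9.27, 8.99 and 8.55 at mid, 8.83, 8.60, 8.84 and 8.55 at mid-late, 8.96, 9.07, 9.01 and 9.38 at late and 7.16, 7.39, 7.60 and 7.85 at very-late. The late arrays lie above all early and all very-late arrays, and the very-late arrays lie below all others, except that very-late 4 lies above early 4. The gene rose 2.00-fold from early to late (limma, adjusted p = 0.00377) and fell 3.04-fold from late to very-late, a difference of -1.61 ± 0.20 (adjusted p = 1.46e-05). At very-late it stood 0.61 ± 0.20 below early (adjusted p = 0.0367), a smaller difference that ended without very-late 1 and 2 (-0.38, adjusted p = 0.336), under cyclic loess scaling (-0.48, adjusted p = 0.0977) and without any one of early 1, early 2, early 3, very-late 1, very-late 2 or very-late 3.

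Of the 5 probe sets of SLC25A37, 4 fell from late to very-late, by -1.92 to -1.34, and 3 rose from early to late. The remaining probe set lay below background, with means of 3.60 to 3.87 and a late to very-late difference of -0.24 ± 0.10 that did not pass (adjusted p = 0.151). The fall from late was -1.57 on the 13 arrays of high mitochondrial-genome signal (limma, adjusted p = 3.23e-05) and -1.38 without very-late 1 and 2 (adjusted p = 0.000719).

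SLC25A37 is known from red cell precursors, so red cell markers were set beside it. HBB, a haemoglobin chain, had means of 6.13 at early, 7.57 at mid, 6.74 at mid-late, 6.37 at late and 6.36 at very-late. ALAS2, the first enzyme of red cell haem synthesis, had means of 5.64, 6.07, 5.72, 5.54 and 5.55 in the same order. Both markers (2 of 5 listed) were level between late and very-late, with differences of -0.01 ± 0.26 and 0.01 ± 0.12. HBB was highest at mid, where it rose by 1.44 ± 0.26 from early (limma, adjusted p = 0.0270). All 4 mid arrays have low mitochondrial-genome signal. For this rise, the stage and that signal cannot be told apart. From late to very-late, where SLC25A37, SLC25A4 and SLC25A22 fell, all 3 measured luteal markers fell too, against 21.4% of genes called. STAR fell by 4.22 ± 0.38 (limma, adjusted p = 4.33e-07). From early to late the markers parted: HSD3B2 went from a mean of 11.999 to 9.347, STAR from 13.194 to 13.365 and CYP19A1 from 9.229 to 11.263. Over that same step SLC25A37 rose, SLC25A22 fell and SLC25A4 was not called. The part of the luteal markers in the falls of these carriers was not tested.

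SLC25A28, mitoferrin-2, the form found outside red cells, had means of 7.22 ± 0.11 at early, 7.09 ± 0.21 at mid, 6.87 ± 0.10 at mid-late, 6.98 ± 0.15 at late and 6.90 ± 0.21 at very-late (SD, n = 4). Its mid-late, late and very-late arrays all lay below its early arrays, and no comparison passed (very-late against early -0.32 ± 0.11, adjusted p = 0.0530; very-late against late -0.08 ± 0.11, adjusted p = 0.753).

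The uncoupling proteins and their relatives were all measured, 6 of 6, with 4 above background. UCP2, a carrier widespread in tissues and abundant in immune cells, gave probe sets that disagree. The brightest probe set, used for the counts, read 8.81, 9.11, 9.10 and 8.63 at early, 8.67, 8.63, 8.75 and 8.59 at mid, 8.92, 8.71, 8.80 and 8.77 at mid-late, 8.83, 8.73, 9.14 and 9.32 at late and 9.00, 9.06, 8.61 and 8.60 at very-late. These stages overlap, and very-late differed from late by -0.19 ± 0.14 (limma, adjusted p = 0.464). A second UCP2 probe set differed by -0.05 ± 0.10 (adjusted p = 0.840).

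The third UCP2 probe set, singled out after its values were seen, rose steeply at very-late. It read 7.35, 6.86, 7.24 and 7.32 at early, 6.62, 6.26, 6.30 and 5.98 at mid, 6.21, 6.77, 7.07 and 6.74 at mid-late, 7.34, 7.23, 7.23 and 7.35 at late and 9.62, 10.97, 10.03 and 10.36 at very-late. Every very-late array lies more than 2 log2 units above every earlier array. The rise was 2.96 ± 0.22 from late, or 7.76-fold (limma, adjusted p = 7.07e-08), and 3.05 ± 0.22 from early, or 8.28-fold (adjusted p = 2.72e-08). It was 2.71 from late on the 13 arrays of high mitochondrial-genome signal (adjusted p = 7.06e-07).

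Macrophage markers moved with that probe set. CD68, a lysosomal protein of macrophages, rose from 8.20 at late to 10.90 at very-late, and CYBB, the phagocyte oxidase subunit, from 7.05 to 10.59. Of the 5 macrophage markers measured 4 rose (80%, against 21.4% of genes called). The fifth, CSF1R, differed by 0.66 without passing (limma, adjusted p = 0.153). Very-late 2 was highest for the third UCP2 probe set, for CD68 and for CYBB. The part of macrophage RNA in the UCP2 value was not tested, and which of the 3 probe sets reads the UCP2 transcript best cannot be told from these values.

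**Figure D3:**
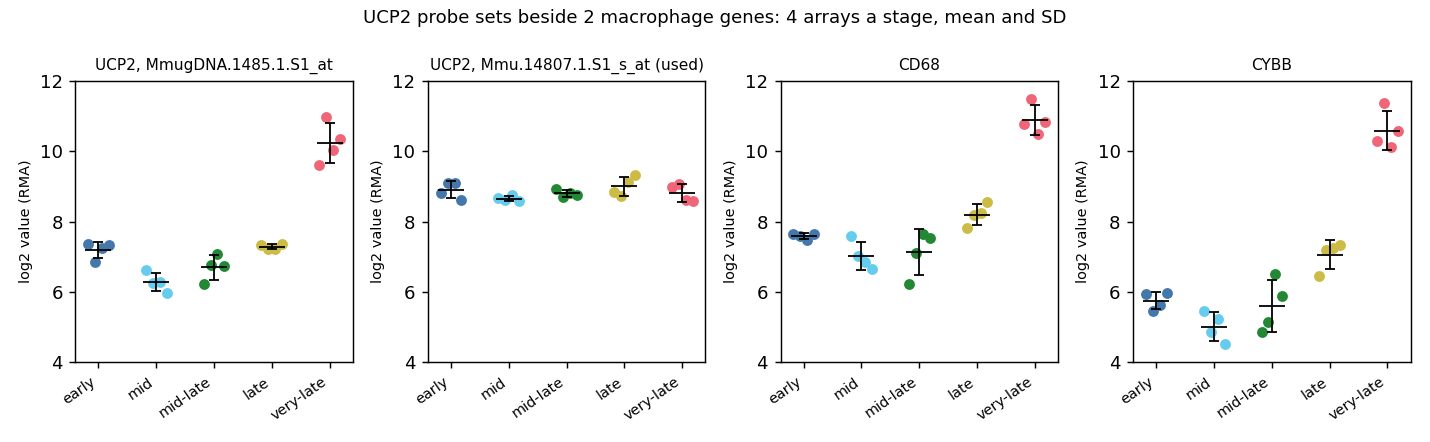
Points are the log2 values of the 4 arrays at each stage for UCP2 probe set MmugDNA.1485.1.S1_at, for the UCP2 probe set used in the counts, and for the macrophage genes CD68 and CYBB, with stage mean and SD. The first UCP2 probe set, CD68 and CYBB have all 4 very-late arrays above 9.6, and the used probe set stays between 8.59 and 9.32 on all 20 arrays.

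SLC25A27 (UCP4), a relative known from brain, rose from early to very-late by 0.50 ± 0.17, or 1.42-fold (limma, adjusted p = 0.0433), with overlapping arrays of 5.02 to 5.68 at early and 5.28 to 6.12 at very-late. The call ended in 15 of the 20 fits that left out 1 array (adjusted p up to 0.149) and under both other scalings. Another of its 3 probe sets rose by 0.83 ± 0.22 between the same stages (adjusted p = 0.0115). SLC25A14 (UCP5) had means between 4.52 and 4.93, and SLC25A30 between 5.30 and 5.49, with no call. UCP1, the uncoupling protein of brown fat, had means of 3.06 to 3.12 and lay below background at every stage, as did UCP3, the form of skeletal muscle, at 3.61 to 3.83. The brown fat gene CIDEA lay at 3.33 to 3.68 on the 20 arrays.

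**Figure D4:**
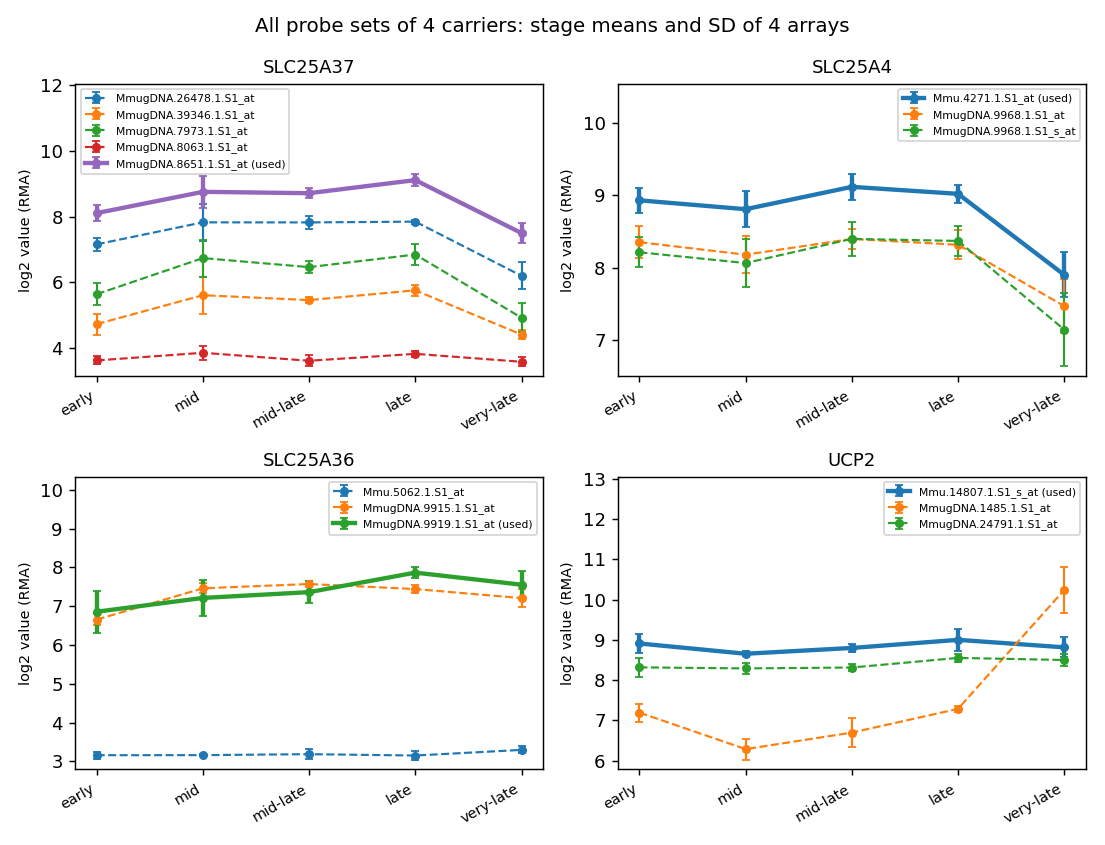
Lines join the stage means of every probe set of SLC25A37, SLC25A4, SLC25A36 and UCP2, with the SD of 4 arrays as bars, and the thick line is the probe set used. The probe sets of SLC25A37 and SLC25A4 above background fall together at very-late. Those of SLC25A36 above background are higher at late than at early, and 1 of 3 UCP2 probe sets rises to 10.24 at very-late.

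Of the carriers whose substrate is less well defined, 4 of 8 listed genes were measured and 1 lay above background. SLC25A46, a protein of the outer membrane tied to mitochondrial dynamics, varied widely within stages, with SDs of 0.46 to 0.57. Its range of stage means was 0.58, and the test of any difference did not call it (limma, adjusted p = 0.697). SLC25A34, SLC25A35 and SLC25A48 lay below background with no call. Family symbols of the role groups with no probe set of a single symbol, among them SLC25A6, SLC25A12, SLC25A20 and SLC25A32, were not analysed here.

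Counted by comparison, the calls lay in those that involve the late or very-late stage. Against early, limma called 0 of 39 carriers at mid (5 with an unadjusted p under 0.05), against 0.362% of all probe sets and 0.594% of genes. At mid-late it called 0 (9 with an unadjusted p under 0.05), against 3.73% and 6.31%. At late it called 4 (10.3%), 2 higher and 2 lower, against 7.58% of all probe sets (3.61% higher and 3.97% lower) and 12.3% of genes. At very-late it called 8 (20.5%), 2 higher and 6 lower, against 18.7% of all probe sets (9.45% higher and 9.21% lower) and 28.9% of genes. That last split was 3 higher and 3 lower under cyclic loess scaling and 1 higher and 8 lower with each array centred on its median.

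Between neighbouring stages, limma called 0 carriers from mid to mid-late (4 with an unadjusted p under 0.05) and 0 from mid-late to late (1 with an unadjusted p under 0.05), each against 0.0114% of all probe sets and against 0.0142% and 0.00708% of genes. From late to very-late it called 5 (12.8%), 2 higher and 3 lower, against 13.8% of all probe sets (6.75% higher and 7.03% lower) and 21.4% of genes. The median difference of the 39 genes from late to very-late was -0.05, and that of all probe sets was 0.02. SLC25A37, SLC25A4 and SLC25A51 also passed from late to very-late on the 13 arrays of high mitochondrial-genome signal. The comparisons share stages, early in 4 of them, so calls of 1 gene in several comparisons rest in part on the same arrays.

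**Figure D5:**
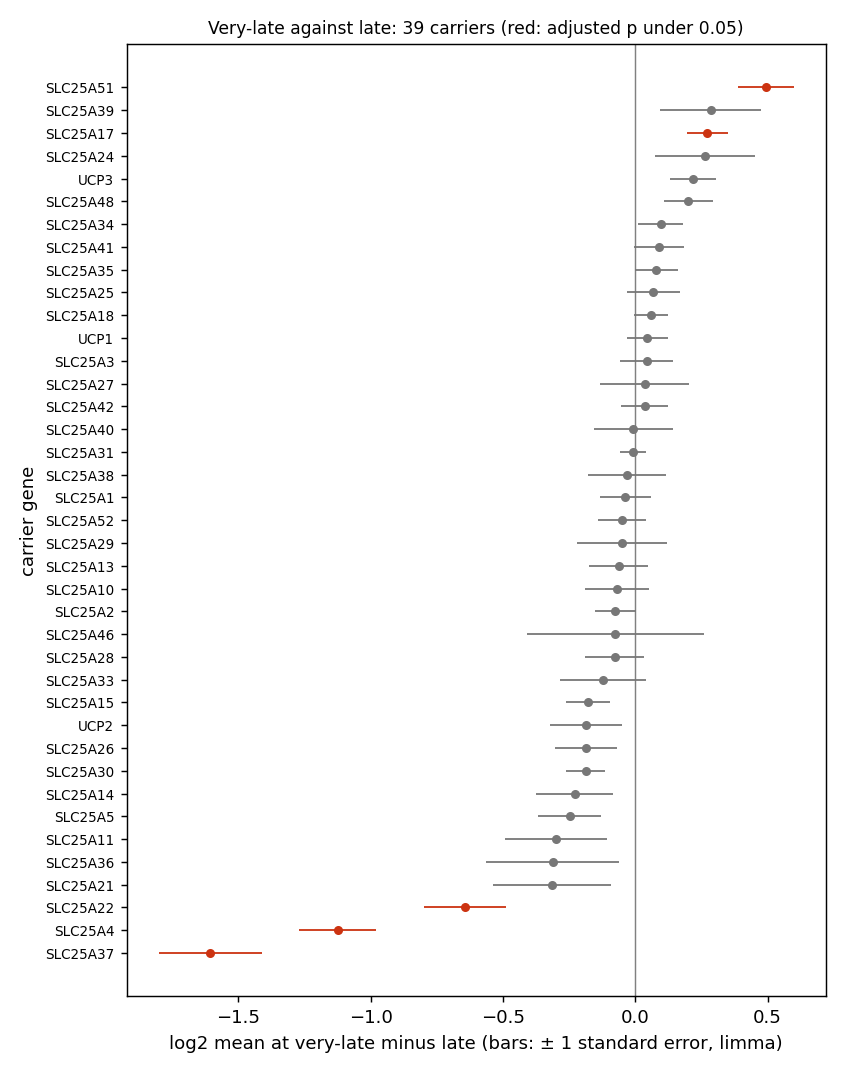
Points are the log2 difference of very-late minus late for the 39 carriers, with 1 standard error from limma as bars, and red marks an adjusted p under 0.05. SLC25A37, SLC25A4 and SLC25A22 lie below -0.6, SLC25A51 and SLC25A17 are the red points above 0, and the other 34 genes lie between -0.31 and 0.29.

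Other genes of mitochondrial transport were set beside the carriers. Of 26 listed genes for channels, import machines and other transporters, 17 were measured, and from late to very-late 6 fell and 0 rose (35.3%, against 21.4% of genes), with a median difference of -0.23. TIMM23, a pore of protein import, fell by 0.67 ± 0.09 (limma, adjusted p = 2.43e-05), MICU2, a regulator of the calcium uniporter, by 0.67 ± 0.15 (adjusted p = 0.00388), and TOMM20, an import receptor, by 0.59 ± 0.14 (adjusted p = 0.00883). From early to late 2 rose and 2 fell (23.5%, against 12.3% of genes). The largest were SFXN2, a sideroflexin, which fell by 0.99 ± 0.16 (limma, adjusted p = 0.00120), and TOMM20, which rose by 0.66 ± 0.14 (adjusted p = 0.00781).

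Enzymes that use or supply the carriers' substrates were set beside them too. Of 24 listed, 17 were measured, and from late to very-late 7 fell and 2 rose (52.9%, against 21.4% of genes), with a median difference of -0.36. ACADM, a dehydrogenase of fatty acid oxidation, fell by 1.99 ± 0.14 (limma, adjusted p = 2.91e-08), and ALAS1, the first enzyme of haem synthesis in most tissues, by 1.21 ± 0.28 (adjusted p = 0.00583). ACSL1, which activates fatty acids, rose by 1.65 ± 0.30 (adjusted p = 0.000919), and PCK2, the mitochondrial enzyme that makes phosphoenolpyruvate from oxaloacetate, rose by 1.04 ± 0.30 (adjusted p = 0.0272). From early to late 6 fell and 0 rose (35.3%, against 12.3% of genes), PCK2 by 2.16 ± 0.30 (adjusted p = 0.000321) and SHMT2, a serine hydroxymethyltransferase, by 1.29 ± 0.29 (adjusted p = 0.00965). ACLY, which splits the citrate that SLC25A1 exports, fell from late to very-late by 0.62 ± 0.10 (adjusted p = 0.000259), beside the difference of -0.04 of SLC25A1 itself. The difference between the changes of ACLY and SLC25A1 was not tested.

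Of 10 listed regulators of mitochondrial content, 7 were measured, and limma called 0 from late to very-late, against 21.4% of genes. An unadjusted p under 0.05 was reached there by 4 of the 7 and by 4741 of the 14132 genes. From early to late 1 of the 7 was called, against 12.3% of genes. It was PPRC1, a coactivator, which fell by 0.58 ± 0.14 (limma, adjusted p = 0.0126). Of 6 listed genes of mitochondrial steroid synthesis, 5 were measured and 4 fell from late to very-late (80%, against 21.4% of genes). STAR and HSD3B2 are among these falls and also stand among the luteal markers above. FDXR, the reductase that feeds electrons to the side-chain cleavage enzyme, fell by 2.87 ± 0.33 (limma, adjusted p = 7.08e-06). FDX1, its ferredoxin partner, fell by 1.10 ± 0.15 (adjusted p = 4.88e-05).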

How the data were processed

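Total RNA of 20 corpora lutea was measured on Affymetrix rhesus arrays. The authors deposited log2 values made with RMA, per the submitters' processing notes; the version and chip definition are not given in the sources used here, and the log2 scale was inferred from their range (2.48 to 14.28). The 158 array controls among 52865 probe sets stayed out. In R 4.3.3, limma 3.58.1 fitted 5 stage means to all 20 arrays (15 residual and 2.75 prior degrees of freedom), tested any difference and 7 comparisons, two-sided, and adjusted with Benjamini-Hochberg over 52707 probe sets. The fit was tested on data with known answers. RMA pulls low values together, so folds of dim genes are understated.

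Members and lists were chosen with earlier results of these data known. Values by array are given for carriers called with a range of at least 1, for the largest calls in each comparison and for a fixed list. Gene names come from the platform annotation; 38 of 39 carriers match a gene in the current RefSeq table, all but SLC25A15. No probe sequence or genome was used. Array medians lay between 3.88 and 3.98. Alternatives covered scaling, prior, weights, dim probe sets, probe set choice, a replicate block, a fold minimum and arrays left out; the restriction to 13 arrays was added after the data were seen.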

Additional observations from a re-analysis of the deposited data

Results flagged for a closer look

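Within the stages, 210 groups of 4 arrays (the 39 carriers and 3 further probe sets, of SLC25A11, SLC25A36 and UCP2) were examined for a single array far from the other 3, and 9 groups held one by Dixon's test at the 95% level, where chance gives about 1 group in 20. SLC25A36 was lowest on early 2, at 6.05 against 7.05 to 7.20 on the other early arrays, and highest on mid-late 2, at 7.78 against 7.19 to 7.24 on the other mid-late arrays. Its second probe set was highest on mid-late 3, at 7.67 against 7.53 to 7.55. SLC25A3 was lowest on late 2, at 10.51 against 10.62 to 10.65, and SLC25A24 on late 1, at 6.59 against 6.78 to 6.81. The other 4 concerned genes near or below background: SLC25A21 was highest on late 4 (4.06 against 3.66 to 3.72), SLC25A15 on mid-late 1 (3.98 against 3.72 to 3.77), SLC25A18 on mid 2 (3.49 against 3.39), and UCP1 on early 3 (3.33 against 3.03 to 3.07).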

How the results depend on the processing

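The falls of SLC25A37 and SLC25A4 from late to very-late, the rise of SLC25A37 from early to late and the falls of SLC25A4 and SLC25A22 from early to very-late kept their direction and their call in all 33 alternatives run for each, as did both rises of the third UCP2 probe set in 31. Over the 19 pairs of a gene and a comparison examined, none of the 619 alternative values changed direction, and 90 lost the call.

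The share of all genes called under each alternative is not given here. The counts of this section therefore cannot be read as particular to the carriers. With a gene's probe sets averaged, the number of carriers called was 12 for any difference, 2 at mid, 4 at mid-late, 7 at late and 14 at very-late against early. A minimum of 2-fold left 3 for any difference, 2 at late, 2 at very-late against early and 2 from late to very-late. At mid-late against early, where 0 carriers were called, leaving out dim probe sets gave 2, array weights 4, 1 probe set per gene 2, leaving out very-late 1 and 2 gave 3, a term for the mitochondrial-genome groups 1 and the 8 arrays of the stages compared 3. The 8 arrays alone gave 3 at very-late against early. From late to very-late, leaving out dim probe sets gave 3 and the 13 arrays of high mitochondrial-genome signal gave 3. The cause of these shifts was not tested, except that SLC25A17 and SLC25A51 are among the dim probe sets left out.

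Leaving out each array in turn gave 6 to 10 carriers for any difference, 0 to 1 at mid, 0 to 2 at mid-late, 1 to 7 at late and 4 to 9 at very-late against early, 0 in all 20 fits for both comparisons between mid, mid-late and late, and 4 to 6 from late to very-late. The count at late against early was 7 without early 1, 1 without early 2, 2 without early 3 and 2 without late 1. At very-late against early it was 4 without early 2 and 5 without early 3. At mid-late against early it was 2 without early 1 or very-late 2, and at mid it was 1 without mid 1.

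Arrays of the same replicate number did not deviate together (correlations of -0.21 to 0.21), which gives no sign of pairing and cannot exclude it. With the replicate number as a block, 8 carriers were called for any difference, 1 at mid-late, 4 at late and 6 at very-late against early, and 5 from late to very-late. Signal over background limits the 13 carriers at the viral level, of which SLC25A21 alone had a call.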
